A study of Mus musculus with 18 samples.

Results

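A set of 9 genes of the Polycomb system was followed through cardiac differentiation of mouse embryonic stem cells: Ezh1, Ezh2, Eed, Suz12, Jarid2, Cbx2, Cbx6, Cbx7 and Cbx8. They were taken by symbol from a table of 23337 gene symbols, and all 9 were among the 13116 genes that passed the filter on low counts. The rule names symbols only and sets no threshold on a measured value. The cells were the TBX5-FTA line on the A2Lox.cre strain, a single mouse embryonic stem cell line, left untreated and differentiated towards cardiomyocytes. PolyA RNA was sequenced on days 5, 6, 7, 8, 10 and 15 (D5 to D15), with 3 libraries a day and 18 in all. The labels call the cells of D5, D6 and D7 cardiac progenitors, and those of D8, D10 and D15 cardiomyocytes. All 18 libraries share this strain, line and lack of treatment, so day of harvest was the only factor. Whether the 3 libraries of one day are separate cultures is not stated, so a p-value here reflects library-to-library spread alone, possibly technical.

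Polycomb proteins keep genes silent through chromatin. In Polycomb repressive complex 2 (PRC2), EZH1 or EZH2 is the methyltransferase that marks histone H3 on lysine 27, EED and SUZ12 are core subunits that the enzyme needs, and JARID2 is an accessory subunit that helps to bring the complex to its sites. In canonical Polycomb repressive complex 1 (PRC1), one CBX protein at a time reads that mark beside the ubiquitin ligases RING1 or RNF2, so that the choice of CBX paralogue helps to set which complex forms. EZH2 is known as the enzyme of dividing cells and EZH1 as the one that remains in cells that have left the cycle. In the developing mouse heart, PRC2 is known to keep non-cardiac and early progenitor genes off, and JARID2 is required for normal heart development.

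The promoters of the members are shown here because the pair of methyltransferase genes, Ezh2 and Ezh1, differed both in their course and in the letters near their start sites. The choice was made with both differences known, and no link between letters and course was tested. RefSeq promoter windows (GRCm38.p6, from 250 bases before to 50 bases after the start) were found for 8 of the 9 members, without Cbx2, and Jarid2 had 2 starts, which made 9 windows. Each was searched on both strands for TTTNGCGC, the type of motif that E2F factors bind, and for CCAAT, the motif of NF-Y. The motifs can share end bases, but no match of one overlapped a match of the other in these windows. Printed below, 5′ to 3′ on the gene's strand, are the 110 bases before and the first 15 bases after the start for Ezh2 (chr6:47595016-47595140, minus strand), Ezh1 (chr11:101226449-101226573, minus strand), Suz12 (chr11:79992996-79993120, plus strand) and Cbx6 (chr15:79834319-79834443, minus strand). Capitals mark the matches to either motif, read on either strand.
Ezh2: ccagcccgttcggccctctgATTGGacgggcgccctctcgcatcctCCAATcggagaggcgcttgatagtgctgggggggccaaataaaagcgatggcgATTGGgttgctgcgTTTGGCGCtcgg
Ezh1: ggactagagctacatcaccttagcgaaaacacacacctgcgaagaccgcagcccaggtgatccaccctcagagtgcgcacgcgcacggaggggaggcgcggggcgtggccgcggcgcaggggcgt
Suz12: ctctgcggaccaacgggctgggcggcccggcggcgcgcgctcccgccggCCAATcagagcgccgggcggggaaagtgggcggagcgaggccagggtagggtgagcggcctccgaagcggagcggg
Cbx6: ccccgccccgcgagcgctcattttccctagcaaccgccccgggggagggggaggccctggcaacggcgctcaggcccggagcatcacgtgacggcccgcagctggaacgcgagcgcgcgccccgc
The Ezh2 window held TTTNGCGC once, as TTTGGCGC at bases +4 to +11, and was the 1 window of the 9 that did. That motif was present in 452 of all 32851 RefSeq promoters of this length (1.376%). Ezh2 also held CCAAT 3 times, with all 3 matches within 90 bases before the start, and Suz12 held it once. CCAAT stood somewhere in 7 of the 9 windows, against 12289 of 32851 promoters (37.408%). The 7 were those of Ezh2, Suz12, Eed, Cbx7 and Cbx8, which fell from D5 to D15, and both windows of Jarid2, which rose. The windows of Ezh1 and Cbx6, which also rose, held neither motif. The members' windows carried 17 to 41 CpG dinucleotides, beside a median of 7 over all promoters. TTTNGCGC itself holds a CpG, and the share of matches among promoters as rich in CpG as these was not computed. The shares over all promoters are thus no like background for these windows. A match describes letters only and says nothing of which factor is bound.

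Every member changed over the 6 days (edgeR's quasi-likelihood test, Benjamini-Hochberg adjusted p under 0.05). The same was true of 88.9% of all tested genes, so the count of 9 is near the background. Between D5 and D15, Ezh2, Eed, Suz12, Cbx2, Cbx7 and Cbx8 fell and Ezh1, Jarid2 and Cbx6 rose. Of all tested genes, 78.0% were called in this comparison, 37.7% lower and 40.3% higher. The median log2 fold change of the members was -0.63, beside 0.03 over all tested genes. Between the mean of D8, D10 and D15 and the mean of D5, D6 and D7, the same 6 genes fell and the same 3 rose, with 77.1% of all tested genes called, 37.8% lower and 39.3% higher. In bulk RNA, fewer cells that express a gene and less RNA of it per cell cannot be told apart. Levels are given as CPM, read counts scaled to the library total with TMM factors (trimmed mean of M-values).

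**Figure D1:**
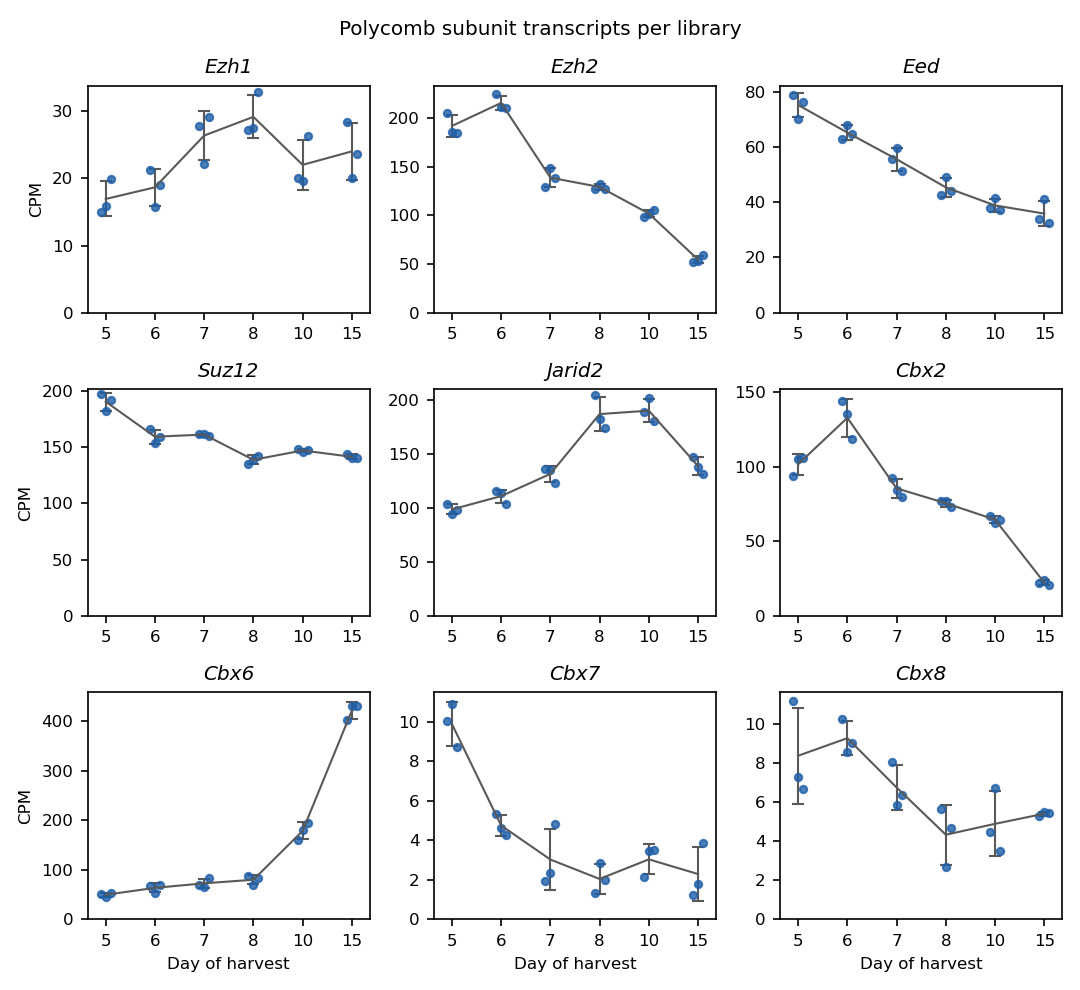
Level of each of the 9 members (y axis, TMM-scaled CPM) in every library by day of harvest (x axis, days drawn at even steps); points are libraries and lines join the means of 3 libraries a day, with bars of 1 SD. Ezh2 and Cbx2 end at their lowest level and Cbx6 at its highest on D15, while Jarid2 is highest on D8 and D10.

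Ezh2, the methyltransferase of dividing cells, had the largest fall in CPM of any member. Its level was 205, 186 and 184 CPM in the libraries of D5 and 224, 212 and 211 CPM on D6. It was 129, 149 and 138 CPM on D7 and 128, 133 and 128 CPM on D8. On D10 it was 98.4, 102 and 105 CPM, and on D15 it was 51.7, 52.8 and 59.0 CPM. All libraries of D15 lay below all of every earlier day, whereas those of D7 and D8 overlapped. The log2 fold change from D5 to D15 was -1.81 ± 0.07 (SE, n = 3 libraries a day, edgeR adjusted p = 3.05e-19). Most of it came in 2 steps, from D6 to D7 (log2 fold change -0.64 ± 0.07, edgeR adjusted p = 2.86e-08) and from D10 to D15 (-0.90 ± 0.08, edgeR adjusted p = 4.36e-11).

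Ezh1, the other methyltransferase, ended higher on D15 than on D5, at a lower level than Ezh2 throughout, and like Ezh2 it was called lower from D8 to D10. It was at 14.99, 15.9 and 19.9 CPM on D5, at 21.3, 15.8 and 19.0 CPM on D6, and at 27.8, 22.2 and 29.1 CPM on D7. It was at 27.2, 27.5 and 32.9 CPM on D8, at 20.1, 19.7 and 26.3 CPM on D10, and at 28.4, 20.03 and 23.7 CPM on D15. The lowest library of D15 lay just above the highest of D5, and D8 held the highest library of the series. The log2 fold change from D5 to D15 was 0.50 ± 0.16 (edgeR adjusted p = 0.00562). Without library 1 of D15 it was 0.37 and was no longer called (edgeR adjusted p = 0.0548, with a range of 0.00209 to 0.0548 over the 25 alternatives).

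Compared per kilobase of merged exon, which is needed to set one gene's level beside another's, Ezh2 stood far above Ezh1 on D5 and much nearer to it on D15. Ezh2 was 12.9 ± 2.48 times Ezh1 on D5 (SD, n = 3 libraries), 5.97 ± 1.29 times on D7 and 2.58 ± 0.49 times on D15. On the log2 scale the ratio of Ezh1 to Ezh2 ran from -3.93 to -3.37 in the libraries of D5 and from -1.55 to -1.02 in those of D15, with no overlap. The means differed by 2.32, and this difference does not depend on the gene lengths used. On D7, D8 and D10 the ratio stayed between -2.90 and -2.11, and the libraries of those 3 days overlapped. Ezh2 remained the higher of the pair in all 18 libraries. The ratio carries no test.

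**Figure D2:**
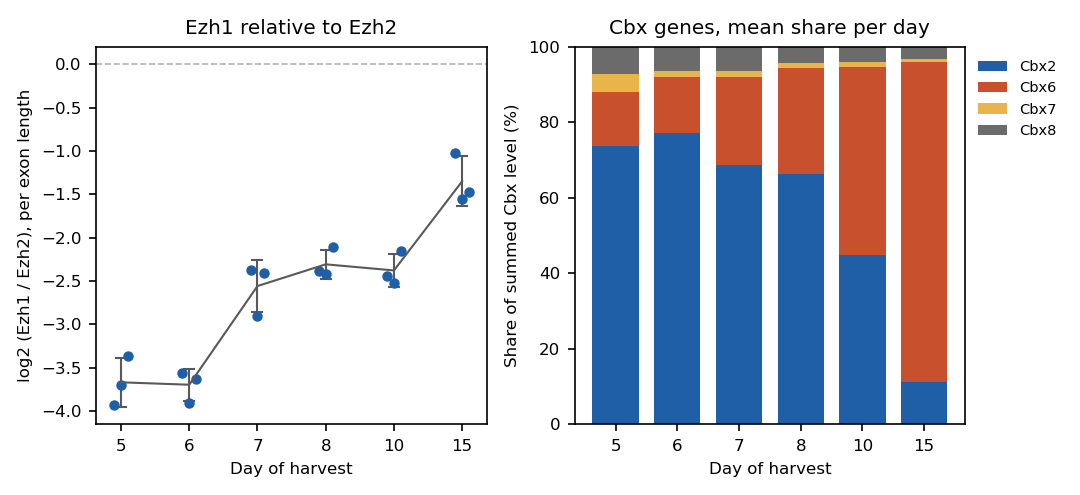
Left: log2 ratio of Ezh1 to Ezh2 per kilobase of exon in every library by day (days at even steps), with a line through the means and bars of 1 SD. Right: mean share, in percent, of each of the 4 Cbx members in their summed level per kilobase by day. The ratio climbs from near -3.67 on D5 to -1.35 on D15, and Cbx6 takes the place of Cbx2 as the largest share between D8 and D10.

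The core subunits of PRC2 fell with smaller fold changes than Ezh2, a difference that was not tested. Eed, whose protein binds the methyl mark and stimulates the enzyme, was at 79.0, 70.3 and 76.4 CPM on D5 and at 33.9, 41.1 and 32.6 CPM on D15. These groups did not overlap. All 9 members had libraries without overlap between D5 and D15, 3 higher and 6 lower, beside 41.2% (higher) and 38.8% (lower) of all tested genes. The log2 fold change was -1.07 ± 0.10 (edgeR adjusted p = 3.10e-11). Its mean declined at each sampled day, through 65.2, 55.6, 45.4 and 38.8 CPM on D6, D7, D8 and D10, yet of the 5 steps between neighbouring days only D7 to D8 was called (log2 fold change -0.29, edgeR adjusted p = 0.0237). That call was lost without library 2 of D7, library 1 of D8 or library 3 of D8, with adjusted p up to 0.123 over the alternatives and 0.0169 at the lowest.

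Suz12, the subunit that holds PRC2 together, was at 197, 182 and 192 CPM on D5 and at 144, 140.0 and 140.3 CPM on D15. From D5 to D15 it fell by 0.43 ± 0.06 on the log2 scale (edgeR adjusted p = 1.23e-07), the smallest of the 6 falls in size, and the libraries did not overlap. Its fall came early. It fell from D5 to D6 (log2 fold change -0.26, edgeR adjusted p = 0.000828) and from D7 to D8 (-0.22, edgeR adjusted p = 0.00696), and was between 135 and 148 CPM in all 9 libraries of D8, D10 and D15.

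Jarid2, the accessory subunit with a known role in heart development, rose and then partly fell back. It was at 104, 94.5 and 97.9 CPM on D5, 115, 113 and 104 CPM on D6, and 136, 135 and 123 CPM on D7. It reached 205, 183 and 174 CPM on D8 and 189, 202 and 180.2 CPM on D10, then stood at 147, 138 and 131 CPM on D15. The libraries of D8 and D10 overlapped each other and lay above all others. The largest rise was from D7 to D8, across the change of label from progenitor to cardiomyocyte (log2 fold change 0.51 ± 0.07, edgeR adjusted p = 3.81e-06). Jarid2 fell from D10 to D15 (log2 fold change -0.46, edgeR adjusted p = 5.18e-06) and ended above its starting level (D15 against D5: 0.49 ± 0.07, edgeR adjusted p = 6.65e-07). No other member was called higher at the D7 to D8 step.

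Among the readers of the mark, Cbx2 and Cbx6 exchanged places. Cbx2, a CBX protein that can also compact chromatin, was at 93.7, 105 and 106 CPM on D5 and at 144, 136 and 119 CPM on D6. It was at 92.3, 84.6 and 79.5 CPM on D7, 77.0, 76.7 and 72.9 CPM on D8, and 66.9, 62.2 and 64.4 CPM on D10. On D15 it was at 22.2, 24.1 and 20.5 CPM, below every library of the other 5 days. The log2 fold change from D5 to D15 was -2.19 ± 0.09 (edgeR adjusted p = 1.69e-18), and most of it came after D10 (D15 against D10: -1.54 ± 0.10, edgeR adjusted p = 1.26e-13). Like Ezh2, Cbx2 rose from D5 to D6 (log2 fold change 0.39, edgeR adjusted p = 0.000327) and fell from D6 to D7 (-0.64, edgeR adjusted p = 5.88e-07).

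Cbx6, a CBX paralogue known from differentiated tissues and less studied than the others, had the largest change of all members. It was at 50.2, 45.1 and 52.2 CPM on D5, 67.3, 53.0 and 69.3 CPM on D6, and 69.1, 65.0 and 83.1 CPM on D7. It was at 87.3, 68.9 and 82.6 CPM on D8, then at 161, 179 and 195 CPM on D10 and at 402, 431 and 432 CPM on D15. The libraries of D10 lay above all of D5 to D8, and those of D15 above all of D10. The log2 fold change from D5 to D15 was 3.10 ± 0.11, or 8.57-fold (edgeR adjusted p = 1.20e-17). The steps from D8 to D10 (1.16, edgeR adjusted p = 8.04e-09) and from D10 to D15 (1.24, edgeR adjusted p = 2.56e-10) made up most of it. Cbx6 shares 563 exonic bases on the same strand with Npcd, which had no count in any library, and 94.88% of its stretches of 50 bases were unique among annotated transcripts.

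Cbx7 and Cbx8 were the lowest members, and their values rest on few counts. Cbx7, the main CBX protein of undifferentiated embryonic stem cells, was at 10.04, 10.9 and 8.73 CPM on D5 and at 1.24, 1.77 and 3.84 CPM on D15, from 211 and 41 counts summed over the libraries. The groups did not overlap, and the log2 fold change was -2.08 ± 0.35 (edgeR adjusted p = 3.50e-06). The fall from D5 to D6 was the 1 called step of the 5 (log2 fold change -1.06, edgeR adjusted p = 0.00813). The exons of Cbx7 share 100 bases with Apobec3 on the other strand, and Apobec3 had 370 counts on D5 and 468 on D15. Cbx8, a CBX protein that is also found in transcriptionally active settings, was at 11.2, 7.27 and 6.68 CPM on D5 and at 5.30, 5.49 and 5.44 CPM on D15. It fell by 0.63 ± 0.26 on the log2 scale (edgeR adjusted p = 0.0320), and library 1 of D5 stood above the other two. Without that library the log2 fold change was -0.37 and was not called (edgeR adjusted p = 0.248). It was also not called by DESeq2 (adjusted p = 0.0528) or without library 1, 2 or 3 of D15, with a range of 0.0173 to 0.248 over the 25 alternatives. Cbx8 was called lower when the later 3 days were set against the earlier 3 (log2 fold change -0.72, edgeR adjusted p = 0.000126).

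As shares of the summed level per kilobase of the 4 Cbx members, Cbx2 held 73.8% ± 3.11 on D5 and 11.2% ± 0.93 on D15 (SD, n = 3 libraries). Cbx6 held 14.4% ± 1.13 on D5, 28.0% ± 2.35 on D8, 49.7% ± 2.90 on D10 and 84.9% ± 0.53 on D15. On D10 the share of Cbx2 was 44.9% ± 3.08, and its highest library (48.5%) lay above the lowest of Cbx6 (46.7%). Cbx7 held 4.72% ± 0.57 on D5 and 0.746% ± 0.44 on D15, and Cbx8 held 7.10% ± 2.29 and 3.15% ± 0.06. In mm10 (GENCODE M21), Cbx2 (chr11:119022962-119031270, plus strand) and Cbx8 (chr11:119036305-119040969, minus strand) lie 5.0 kb apart, and both fell. Cbx6 (chr15:79823896-79834688) and Cbx7 (chr15:79915807-79971119) lie 81.1 kb apart, both on the minus strand, and there Cbx7 fell while Cbx6 rose.

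The PRC2 genes are spread over 4 chromosomes. Ezh1 lies at chr11:101191115-101226463 and Suz12 at chr11:79993106-80034123. Ezh2 lies at chr6:47530139-47595341, Eed at chr7:89954654-89980983 and Jarid2 at chr13:44729474-44921643. Ezh2, Eed and Suz12 share 174, 261 and 178 exonic bases with a transcript on the other strand. Whether the counting used strand is not given in the sources used here, so reads of such stretches cannot be assigned with certainty.

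Between neighbouring days, 3 to 5 of the 9 members were called at each step. From D5 to D6, Ezh2, Cbx2 and Cbx6 were called higher and Suz12 and Cbx7 lower, with 34.6% of all tested genes called (18.2% higher, 16.4% lower). The Ezh2 call at this step (log2 fold change 0.17, edgeR adjusted p = 0.0475) was lost in 13 of 25 alternatives, with adjusted p from 0.0242 to 0.171. Among these were the fits without library 2 or 3 of D5 and without any 1 library of D6. The Cbx6 call (0.36, edgeR adjusted p = 0.0155) was lost without library 2 of D5, library 1 of D6 or library 3 of D6, with adjusted p from 0.00160 to 0.0804. From D6 to D7, Ezh2 and Cbx2 were called lower and Ezh1 and Jarid2 higher, with 30.4% called (15.1% higher, 15.3% lower). The Ezh1 call (0.50, edgeR adjusted p = 0.0158) was lost without library 2 of D6, library 1 of D7 or library 3 of D7, with adjusted p from 0.00811 to 0.101. The Jarid2 call (0.25, edgeR adjusted p = 0.0112) was lost without library 3 of D6, with adjusted p from 0.00709 to 0.0698.

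From D7 to D8, Jarid2 was called higher and Eed and Suz12 lower, with 24.2% of all tested genes called (12.6% higher, 11.6% lower). From D8 to D10, Cbx6 was called higher and Ezh1, Ezh2 and Cbx2 lower, with 31.2% called (17.3% higher, 13.9% lower). Of those 3 lower calls, that of Ezh2 (log2 fold change -0.34, edgeR adjusted p = 0.000372) held in all 25 alternatives. The calls of Ezh1 (-0.41, edgeR adjusted p = 0.0449) and Cbx2 (-0.23, edgeR adjusted p = 0.0430) were lost in 7 and 10 of them, with adjusted p from 0.0144 to 0.179 for Ezh1 and from 0.0340 to 0.135 for Cbx2. The Cbx2 call was lost whichever library of D8 or D10 was left out. That of Ezh1 was lost without library 2 or 3 of D8 or library 1 or 2 of D10. From D10 to D15, Cbx6 was called higher and Ezh2, Cbx2 and Jarid2 lower, with 50.8% called (26.4% higher, 24.4% lower). All 4 of these calls held in the 25 alternatives. Cbx8 was called at none of the 5 steps by edgeR or in any alternative, and at 1 of the 5 its unadjusted p was under 0.05.

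**Figure D3:**
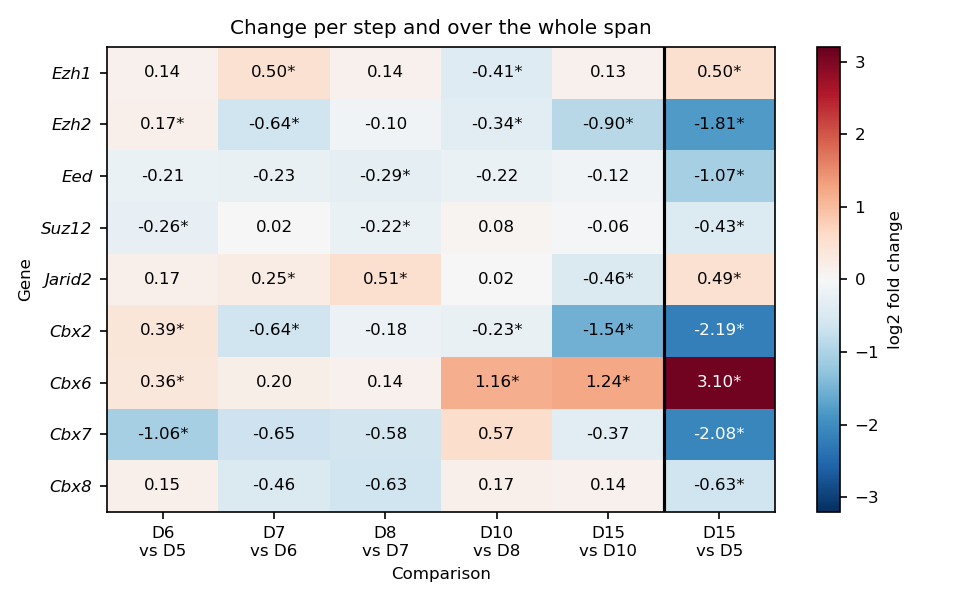
Log2 fold change of each member between neighbouring days and from D5 to D15 (colour, red higher and blue lower on the later day), with the value printed in each cell and a star where edgeR's adjusted p was under 0.05. The steps of Ezh2 and Cbx2 share their signs, and the large values of Cbx6 stand in the steps after D8.

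Set in order per kilobase of merged exon, the members changed rank as well as level. On D5 the order was Suz12 at 38.5 ± 1.60 CPM per kb (SD, n = 3 libraries), Ezh2 at 28.7 ± 1.76, Cbx2 at 23.9 ± 1.62, Eed at 19.7 ± 1.17, Jarid2 at 10.2 ± 0.48 and Cbx6 at 4.64 ± 0.34 CPM per kb. Below them Cbx8 (2.28 ± 0.67) and Ezh1 (2.28 ± 0.35) overlapped, and Cbx7 was lowest at 1.52 ± 0.17 CPM per kb. On D15 the order was Cbx6 at 39.7 ± 1.61, Suz12 at 28.6 ± 0.45 and Jarid2 at 14.3 ± 0.82 CPM per kb. Eed (9.37 ± 1.20) and Ezh2 (8.17 ± 0.59) followed and overlapped. Cbx2 at 5.23 ± 0.43, Ezh1 at 3.23 ± 0.57, Cbx8 at 1.47 ± 0.03 and Cbx7 at 0.352 ± 0.21 CPM per kb came last. On D6, Ezh2, Suz12 and Cbx2 overlapped at the top. Suz12, the scaffold, stood above the enzyme gene Ezh2 without overlap on D5, D7, D8, D10 and D15 on this scale. The order of that pair depends on the length used. Per kilobase of the longest transcript, Ezh2 was at 68.9 ± 4.21 and Suz12 at 43.6 ± 1.81 CPM per kb on D5, Ezh2 was the higher on each day up to D10, and on D15 Suz12 (32.3 ± 0.51) was above Ezh2 (19.6 ± 1.42) on both scales.

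The other genes of these complexes were described from lists of known subunits. For each list, the share of all tested genes called from D5 to D15 was 40.3% higher and 37.7% lower. Of 8 tested further PRC2 subunits, 3 rose and 3 fell from D5 to D15, with a median log2 fold change of -0.06, beside 0.03 over all tested genes. Among them, Mtf2, whose protein brings PRC2 to CpG islands, fell by 1.26 on the log2 scale and its relative Phf19 rose (1.57). E130012A19Rik, the older symbol of Epop, which is an accessory subunit of embryonic stem cells, fell by 4.36, and Rbbp4, a histone-binding subunit, fell by 0.44. Of 10 further canonical PRC1 subunits, 4 rose and 3 fell, with a median of 0.16. The ubiquitin ligase gene Rnf2 fell by 0.91 and the polyhomeotic gene Phc1 fell by 1.499, while its paralogue Phc3 rose (1.29).

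Of 16 subunits of variant PRC1, the forms without a CBX protein, 11 fell and 2 rose, with a median log2 fold change of -0.50. Kdm2b, which binds unmethylated CpG islands, fell by 1.68, L3mbtl2 by 1.38, and the PRC1 ring-finger genes Pcgf6 and Pcgf5 by 1.71 and 1.81. Genes for erasers of the Polycomb marks and their partners also fell more often than they rose, 7 of 9 against 1 of 9, at a median of -0.70. The deubiquitinase gene Bap1 fell by 0.89, and the genes of its partners Foxk2, Asxl1 and Foxk1 fell by 0.83, 0.80 and 0.70. Of 11 tested trithorax methyltransferase subunits, whose complexes oppose Polycomb, 8 fell and 2 rose (median -0.49). Ash2l fell by 1.65, Wdr5 by 1.01 and Setd1a by 0.65, while Ash1l rose (0.99). The falls of Ezh2, Eed and Cbx2 thus stood among falls in lists of the opposing factors too, and no comparison between the lists was tested.

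**Figure D4:**
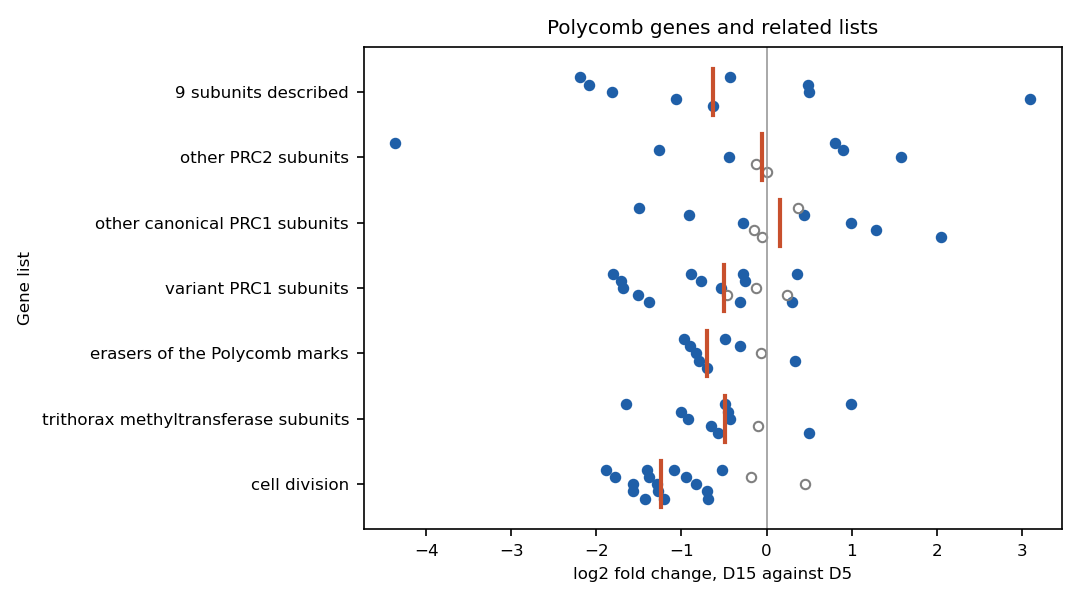
Log2 fold change from D5 to D15 (x axis) for each tested gene of the members and of the lists of further Polycomb, trithorax and cell division genes (y axis); each point is a gene, filled where called, and the short bar is the list's median. The variant PRC1 genes, the erasers, the trithorax genes and the cell division genes lie mostly below 0.

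Genes of cell division mostly fell over the span, as did Ezh2 and Cbx2, but by less than either from D10 to D15. Of 18 such genes, 16 fell from D5 to D15, with a median log2 fold change of -1.24, and E2f1 and E2f2 were the 2 not called. Over that span 37.7% of all tested genes were called lower. Rrm2, a subunit of ribonucleotide reductase, fell by 1.88, the replication licensing genes Mcm5 and Mcm3 fell by 1.79 and 1.43, and the mitotic checkpoint gene Bub1 fell by 1.57. Their summed level ran from 4418 to 4596 CPM in the libraries of D5 and from 4938 to 5078 CPM on D6. It was 3188 to 3373 CPM on D7 and 2909 to 3269 CPM on D8. On D10 it was 2618 to 2941 CPM, and on D15 it was 2028 to 2348 CPM. No gene of that list was at 0 on any day. It was highest on D6, like Ezh2 and Cbx2, and lowest on D15. From D6 to D7 all 18 fell, beside 15.3% of all tested genes. From D10 to D15, 15 of the 18 fell, beside 24.4% of all tested genes. Their median log2 fold change at this step was -0.35, beside -0.90 for Ezh2 and -1.54 for Cbx2, where the median is over all 18. The part of the cell division genes in the falls of Ezh2 and Cbx2 was not tested.

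The makeup of the cultures moved as well. All 12 cardiomyocyte markers rose from D5 to D15, and their summed level went from 326 to 396 CPM on D5 to 4928 to 8334 CPM on D15, so markers of the labelled cell type were present on the last day. The libraries of a day differed in this sum, at 4930, 3607 and 2111 CPM on D10 and 8334, 6273 and 4928 CPM on D15, and the part of this spread in the members' values was not tested. All 11 fibroblast and matrix markers rose too, from 723 to 760 CPM on D5 to 38846 to 47980 CPM on D15, with Dpt at 0 on every day before D15. In addition, 6 of 7 epicardial markers and 7 of 8 endothelial markers rose, and of 6 smooth muscle markers 3 rose and 3 fell. The epicardial sum went from 366 to 398 CPM on D5 to 2449 to 2561 CPM on D15, with Msln at 0 on D5, and the endothelial sum from 145 to 174 CPM to 355 to 530 CPM. Of the 7 blood genes 3 were tested, of which Runx1 rose (0.93), Tal1 fell by 3.75 on the log2 scale from 202 to 12 counts, and Itga2b was not called. Hbb-y, an embryonic globin gene, had 5, 17 and 48 counts over the libraries of D6, D7 and D8 and at most 2 on any other day. The blood genes Hba-a1 and Ptprc had no count in any of the 18 libraries, which allows at most 0.0264 CPM over the series. Of the 4 tested endoderm markers 2 rose and 2 fell, of the 4 tested neural markers 1 rose and 3 fell, and the 1 tested pluripotency marker fell. The fibroblast sum rose with Cbx6 from D8 (16365 to 23505 CPM) to D10 (24548 to 31879 CPM). It also rose from D7 (5025 to 6724 CPM) to D8, where Cbx6 was not called (edgeR adjusted p = 0.379). Other sums rose from D8 to D10 too, in the mean from 795 to 1475 CPM for the epicardial list and from 2110 to 3549 CPM for the cardiomyocyte list. The part of these cell types in the changes of Cbx6, Ezh1 and Jarid2 was not tested.

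**Figure D5:**
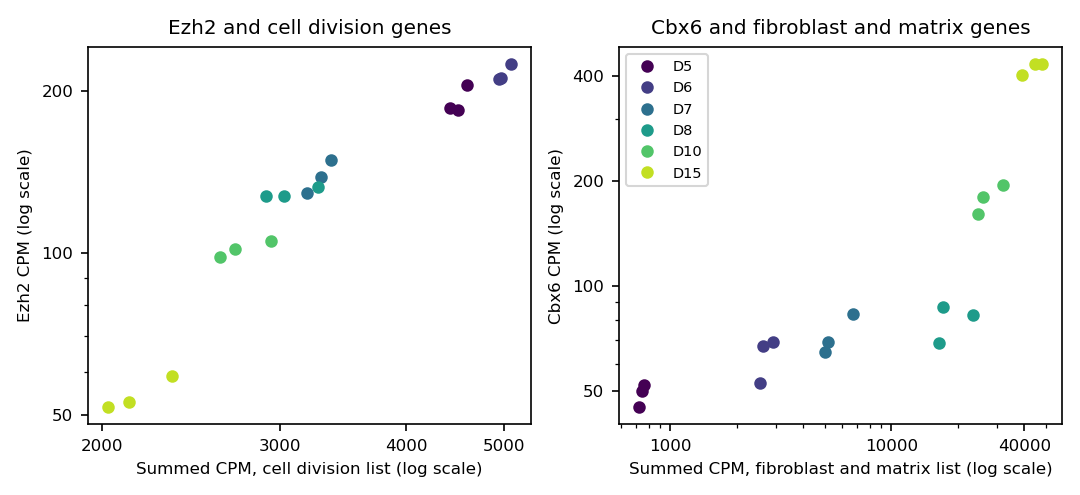
Left: level of Ezh2 (y axis, TMM-scaled CPM, log scale) against the summed level of the cell division list (x axis, CPM, log scale). Right: level of Cbx6 against the summed level of the fibroblast and matrix list, on the same kinds of axis; each point is a library, coloured by day. Libraries of D15 lie lowest on both axes on the left and highest on both axes on the right. From D5 to D8 the mean fibroblast sum climbs from 743 to 18998 CPM and the mean of Cbx6 from 49.2 to 79.6 CPM.

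Over the 18 libraries, which share 6 days and so are not independent points, the log2 levels of Ezh2 and Cbx2 correlated at r = 0.97, and those of Ezh2 and Cbx6 at r = -0.95. Ezh2 and Eed correlated at r = 0.88, while Ezh2 and Ezh1 did so at r = -0.41. These values are descriptions without a test. Among 10270 genes, those with the course most like that of Ezh2 were Kpnb1, Caprin1 and Nucks1 (r = 0.99 for each). Those most like Cbx2 were Dok4, Rcbtb2 and H2afy2 (r = 0.99 for each), and those most like Cbx6 were Mgst1, Aldh1a1 and Fam63b (r = 0.99 for each). Eed was nearest to Mapkapk5 and Pitrm1 (r = 0.98 for each), and Suz12 to Pabpc1 (r = 0.95), Axin1 (0.95) and Gnl3 (0.94). Jarid2 was nearest to Hey1, a Notch target gene of the heart (r = 0.97), followed by Plcb1 and Capn5 (0.96 for each). For the low genes the best matches were looser: Cog5 for Ezh1 (r = 0.86), Gli3 for Cbx7 (0.91) and Alg12 for Cbx8 (0.85).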

How the data were processed

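PolyA RNA of 18 libraries, 3 on each of 6 days, was measured. Per the labels, TruSeq RNA v2 libraries were sequenced as single-end reads, and per the submitters' processing notes STAR and mm10 were used. The counting tool, the annotation, the STAR version and the use of strand in counting are not given in the sources used here. Deposited values are raw read counts per gene symbol, which the authors made without normalization, and 5267 of 23337 genes had no count. Totals per library ran from 5257601 to 7122093 counts, and genes with few counts are known less precisely. Column names gave the day, and 3 further columns, whose names match none of the samples, were not used. No 2 libraries of a day were copies of each other (chi-square over degrees of freedom from 2.21 to 9.23 on genes with at least 20 counts).

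The test was edgeR 4.0.16 (R 4.3.3), run with filterByExpr (minimum count 10), TMM scaling, a robust quasi-likelihood fit of 1 mean per day over all 18 libraries (12 residual degrees of freedom), and Benjamini-Hochberg adjustment over the 13116 genes left, called under 0.05. Levels are TMM-scaled CPM, divided by merged exon length (GENCODE M21) where genes are compared. Likeness is Pearson's r of log2 CPM (prior count 2) over genes with mean log2 CPM of at least 2, leaving out predicted gene models. Named were all members, the 3 genes most like each, and up to 4 genes of each list with the smallest p from D5 to D15. Some of the genes so named are not reported here, and shares of Cbx genes were therefore taken over the 4 Cbx members alone, a choice made after seeing the data. The members and lists were chosen with earlier results of these data known. Over the lists, 165 of 173 genes matched by symbol and 6 by an older symbol. Alternatives were DESeq2 1.42.0, limma-voom (limma 3.58.1), DESeq2-type size factors, upper-quartile scaling, other filters and the compared days alone. Each of the 18 libraries was also left out in turn, whether or not its day was compared. Simulated counts for D15 against D5 over 13116 genes held 67 genes changed by 1.5-fold, 67 by 2-fold and 66 by 4-fold. Of these changes, 64.2% were recovered at 1.5-fold, 83.6% at 2-fold and 97.0% at 4-fold, and 4.68% of the calls were false. Far fewer genes changed there than the 78.0% of tested genes called in the data, so these rates need not hold for the data.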

Additional observations from a re-analysis of the deposited data

How the results depend on the processing

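For D5 to D15 and for the later against the earlier days, the counts of members called higher and lower stayed within 1.5 times under every alternative, and single calls of Ezh1 and Cbx8 were lost as given above. Over all fold changes of members, 418 of the values under other tools, scalings, filters or samples kept direction and call, 12 lost the call, 2 gained it and 0 reversed. With 1 library left out, 1089 kept both, 34 lost the call, 4 gained it and 7 reversed. Each of the 18 libraries was left out for every comparison. Where single days were compared, most of these fits dropped a library of neither day. Such a drop can move a fold change only little, so the count of 1089 overstates how firm the calls are. The count of members called lower from D8 to D10 was 1 with DESeq2-type size factors, with DESeq2 and with a filter of 1 CPM in 9 libraries, against 3. With 1 library left out it ran from 1 to 3 there, the members called higher ran from 1 to 3 from D5 to D6 and from 1 to 2 from D6 to D7, and those called lower ran from 1 to 2 from D7 to D8. The reversed values were all of steps that were not called, given here as the lowest and highest value with 1 library left out: Suz12 from D6 to D7 (-0.0103, without library 2 of D6, to 0.0463), Jarid2 from D8 to D10 (-0.0273 to 0.0899; also -0.0207, without library 3 of D8 or library 2 of D10), Cbx8 from D8 to D10 (-0.124 to 0.43; also -0.0827, without library 2 of D10 or of D8), and from D10 to D15 Ezh1 (-0.0014, without library 1 of D15, to 0.27) and Cbx8 (-0.0392, without library 3 of D10, to 0.43). With the length of the longest transcript in place of merged exons, the log2 ratio of Ezh1 to Ezh2 was -4.11 on D5 and -1.79 on D15. The share of Cbx6 was then 17.0% on D5 and 87.4% on D15, that of Cbx2 9.53% on D15, and Ezh2 stood at 68.9 CPM per kb on D5 and 19.6 on D15. With plain library totals Ezh2 was at 7.51 CPM per kb on D15. No paired analysis was possible because the columns of the count table carry no replicate number. The cardiomyocyte sum was highest in the first listed and lowest in the last listed library on all 6 days, but no label says that column order pairs libraries, so no block was fitted by it. Counts limit Cbx7 and Cbx8 most.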

Other observations

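Genes known as PRC2 targets in the heart moved in both directions. Of the 5, 2 rose and 3 fell from D5 to D15 (edgeR's quasi-likelihood test, Benjamini-Hochberg adjusted p under 0.05). Of all tested genes, 40.3% were called higher and 37.7% lower, so movement in both directions is common to the background. The cell cycle inhibitor genes Cdkn2b (log2 fold change 3.28 ± 0.30, edgeR adjusted p = 4.84e-11) and Cdkn2a (1.31 ± 0.30, edgeR adjusted p = 0.000268) rose. Cdkn2b went from 1.82 ± 0.43 to 17.9 ± 1.18 CPM (SD, n = 3 libraries a day). The progenitor transcription factor gene Isl1 fell by 2.69 on the log2 scale, and Pax6 had 31 counts over the libraries of D5 and 1 over those of D15.

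Of 20 developmental regulators known as Polycomb targets in embryonic stem cells, 10 passed the filter on low counts, of which 4 rose and 5 fell. The shares over all tested genes were 40.3% higher and 37.7% lower. Tbx3 went from 100.7 ± 17.5 CPM on D5 to 7.38 ± 2.83 CPM on D15. Irx3 fell by 3.25 on the log2 scale, and Gata6, a transcription factor gene of heart and endoderm, rose (1.67). Neurog1, Olig2, Nkx2-2, Hoxa9 and Hoxd10 had no count in any of the 18 libraries, which allows at most 0.0264 CPM over the series.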
